A study of Arabidopsis thaliana with 6 samples.

Results

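The genes described here encode the enzymes that fix carbon dioxide in the Calvin-Benson cycle and those that run photorespiration in Arabidopsis thaliana. They were chosen by locus from what their products are known to do: 42 loci of the 34484 identifiers in the deposited table. Of these, 25 were grouped with the Calvin-Benson cycle, among them the carbonic anhydrase gene CA1, and 17 with photorespiration. In the Calvin-Benson cycle, rubisco joins carbon dioxide to ribulose bisphosphate in the chloroplast, the product is reduced to triose phosphate, and most of the triose phosphate is used to rebuild the acceptor. Rubisco also accepts oxygen, and the phosphoglycolate made in that reaction is salvaged by photorespiration, a route through chloroplast, peroxisome and mitochondrion. Both sets of genes are best known from leaves, and green stems carry out the same reactions in their outer, chlorophyll-bearing cells.

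Total RNA of mature main stems was sequenced in 6 libraries. The plants stood in a greenhouse at 20 °C under days of 16 h light and nights of 8 h, and stems were taken 42 days after flowering. The titles assign 3 libraries to a γVPE mutant and 3 to the wild type, and the purpose given was to compare the stem transcriptomes of both genotypes. γVPE is a vacuolar processing enzyme, a cysteine protease of the vacuole. The labels used here give neither the allele nor the ecotype. The table names its columns WT_V 1 to 3 and WT 1 to 3, and the WT_V columns were taken as the mutant because the WT columns carry the name of the other genotype. GAMMA-VPE itself (AT4G32940), the gene named by the genotype, had 328, 328 and 325 FPKM in the WT_V libraries, against 163, 164 and 163 FPKM in the WT libraries. Its level in WT_V was 200.2% of that in WT, with no overlap (exact two-sided permutation test, p = 0.1, the smallest that 3 against 3 can give). The limma test on log2(FPKM + 1), used for the genes below, gave a log2 difference of 0.997 ± 0.0165 (SE, limma adjusted p = 2.48e-12). The labels are therefore kept as names of columns throughout. Each direction below is that of the libraries labelled WT_V relative to those labelled WT. FPKM is the number of fragments per kilobase of transcript, scaled to the total of the library. The series' own text says that there were no replicates while the titles number 3 per genotype, and no label ties a library to a plant of its own, so p-values measure only the spread between these libraries.

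The gene with the highest level among the 42, RBCS1A, encodes the small subunit of rubisco, and 4 nuclear genes make nearly the same protein. RBCS1A (AT1G67090) stands alone on chromosome 1, whereas RBCS1B (AT5G38430), RBCS2B (AT5G38420) and RBCS3B (AT5G38410) lie together on chromosome 5. In the RefSeq annotation of TAIR10.1, RBCS1B and RBCS2B have 0 genes between them, and RBCS2B and RBCS3B have 2. All 4 are on the minus strand. The start of each coding sequence is shown because the copies must be told apart by such differences when reads are assigned to a gene. The sequences are the first 90 coding bases, 5′ to 3′, with the 19 positions at which the 4 copies are not all alike in capitals.
RBCS1A: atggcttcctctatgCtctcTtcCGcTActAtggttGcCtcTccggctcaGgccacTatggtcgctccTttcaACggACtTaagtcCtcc
RBCS1B: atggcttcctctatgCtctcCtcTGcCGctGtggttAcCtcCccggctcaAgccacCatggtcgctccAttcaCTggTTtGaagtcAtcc
RBCS2B: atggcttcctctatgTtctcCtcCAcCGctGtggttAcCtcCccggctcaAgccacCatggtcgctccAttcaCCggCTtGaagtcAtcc
RBCS3B: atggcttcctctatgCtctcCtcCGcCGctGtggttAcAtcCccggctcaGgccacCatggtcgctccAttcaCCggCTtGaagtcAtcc
Over the whole coding sequence, the 3 genes of chromosome 5 were 96.7 to 97.3% identical to each other and 90.4 to 90.6% identical to RBCS1A. Of all 50-base stretches of the exons, 12% in RBCS1B, 16.9% in RBCS2B and 16.5% in RBCS3B also occurred elsewhere in the genome, whereas RBCS1A had 0. The levels of the 3 clustered copies are therefore less certain as separate values than that of RBCS1A.

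The promoter of RBCS2B is shown because it holds, within 200 bases before the annotated start, both letter patterns that are textbook elements of light-regulated rbcS promoters. It lies at chr5:15382072-15382271 on the minus strand of TAIR10.1, with the G-box CACGTG and the I-box GATAAG, searched on both strands, in capitals.
RBCS2B promoter: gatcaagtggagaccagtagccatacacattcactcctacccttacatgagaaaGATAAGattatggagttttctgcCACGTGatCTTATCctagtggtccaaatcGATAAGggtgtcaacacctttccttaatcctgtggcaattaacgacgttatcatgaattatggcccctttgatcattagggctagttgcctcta
The G-box begins at -123 relative to the start and the I-boxes begin at -146, -115 and -94. Across windows from 250 bases before to 50 bases after each annotated start, the G-box letters occurred in 8 of the 42 genes (19%) and in 7.68% of 27443 genes of the annotation. The 8 genes were RBCS2B, CFBP1, TKL2, PRK, CP12-1, GGT1, GGT2 and GLDP1, which include TKL2 and GGT2, higher in WT_V, and 6 genes lower in WT_V. The I-box letters occurred in 9 of the 42 (21.4%) and in 14.6% of all genes. The windows follow the annotated starts, and letters outside them were not counted. A gene not named here, such as another rbcS copy, may therefore hold them further away. A match of letters is a description of the window and not evidence of a bound factor.

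The libraries differed widely between the sets of 3. Over all identifiers, pairs of libraries of the same set had Spearman correlations of 0.984 to 0.989, and pairs of different sets 0.941 to 0.942. Of 19144 genes with a mean of at least 1 FPKM, 51.9% were higher and 24.1% lower in WT_V (limma on log2(FPKM + 1), adjusted p below 0.05), and the median log2 difference over these genes was 0.17. This median moved to -0.015 when the libraries were rescaled by the median of ratios and to -0.09 under quantile normalization. Genes of seed, flower and vascular tissue differed as well. The 9 seed storage and oil body genes examined were all higher in WT_V, with summed levels of 15552 to 15809 FPKM in the WT_V libraries and 0 to 0.0353 FPKM in the WT libraries, and 8 of the 9 were listed at 0 in every WT library. The 9 flower and pollen genes summed to 135 to 140.2 FPKM in WT_V and 29.6 to 32.6 FPKM in WT, with 8 of 9 tested and all 8 higher. The 7 stem vascular genes, which include the secondary wall cellulose synthases and the phloem sucrose carrier SUC2, were detected in all libraries, summing to 201.7 to 202.9 FPKM in WT_V and 80.5 to 83.3 FPKM in WT, and all 7 were higher in WT_V. The part of these other tissues in the results below was not tested. In whole-stem RNA, fewer green cells and less RNA of these genes per green cell cannot be told apart.

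Most genes of carbon fixation and photorespiration were lower in the libraries labelled WT_V. Of the 42 genes, 41 reached the mean of 1 FPKM and were tested. Of the 41, 34 were lower (24.1% of all genes tested were lower), 5 were higher (51.9% of all genes tested) and 2 were not called. Calls in either direction covered 76% of all genes tested. Under quantile normalization, 30 were lower and 9 higher. The median log2 difference of the 41 genes was -0.49 (-0.24 under quantile normalization), beside 0.17 over all genes tested. Of the 39 genes called, quantile normalization turned the sign of 4 and moved the log2 difference of a further 18 by more than 1.5 times, and median-of-ratios scaling moved that of 9 by more than 1.5 times, with the sign of none turned. The summed level of the 42 genes was 22026, 22056 and 22139 FPKM in the WT_V libraries, against 32597, 32794 and 32597 FPKM in the WT libraries, which is 67.6% of WT. The genes took up 3.33 to 3.36% of all FPKM in the WT_V libraries and 4.75 to 4.77% in the WT libraries. The Calvin-Benson genes summed to 67.7% of WT and the photorespiration genes to 67.1%, so the totals of both pathways were lower by nearly the same proportion. For 39 of the 41 tested genes, the WT_V libraries did not overlap the WT libraries, as was the case for 77.6% of all genes tested.

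**Figure D1:**
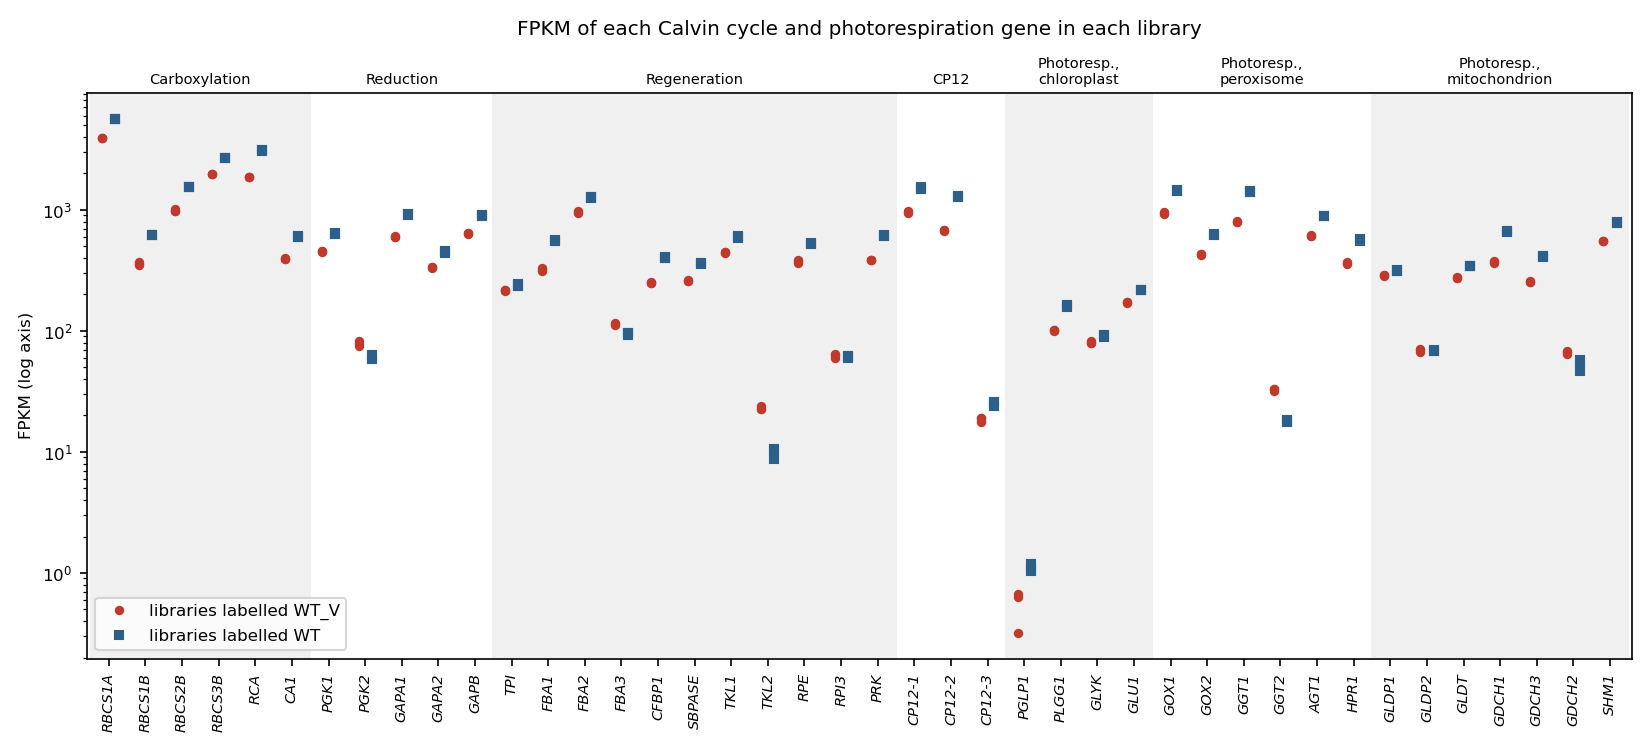
Level of each of the 42 genes in each library, in FPKM on a log axis, with WT_V libraries and WT libraries as separate points and genes grouped by role. Most abundant genes have their WT_V points below their WT points, and the 5 genes called higher (PGK2, FBA3, TKL2, GGT2 and GDCH2) all lie at 116 FPKM or below in every library.

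The carboxylation group holds genes of the rubisco small subunit and rubisco activase. CA1, for a chloroplast carbonic anhydrase, was grouped with them, though it is not an enzyme of the cycle itself. All 6 genes of this group were lower in WT_V, with a median log2 difference of -0.62, and their summed level was 67.2% of that in WT. RBCS1A, the most abundant gene of the 42, had 3920.5, 3885 and 3952 FPKM in the WT_V libraries, against 5612, 5670.2 and 5579 FPKM in the WT libraries. RBCS1A was thus lower in every WT_V library, at 69.7% of WT, with a log2 difference of -0.52 ± 0.00995 (SE, limma adjusted p = 7.68e-12), though quantile normalization turned this to 0.15. RBCS3B had 1973, 1983 and 1979 FPKM in WT_V and 2664, 2678 and 2657 FPKM in WT. RBCS2B had 1013, 977 and 972 FPKM in WT_V and 1534, 1535 and 1529.6 FPKM in WT. RBCS1B, the least abundant copy, had 369, 359 and 351 FPKM in WT_V and 615, 620.0 and 624 FPKM in WT. The sets did not overlap for any of the 4 copies, and WT_V stood at 74.2% of WT for RBCS3B, 64.4% for RBCS2B and 58.1% for RBCS1B. The log2 differences were -0.43 ± 0.00945 for RBCS3B, -0.63 ± 0.0157 for RBCS2B and -0.78 ± 0.0187 for RBCS1B (SE, limma adjusted p = 2.23e-11, 5.62e-11 and 4.31e-11). Under quantile normalization they were -0.28 for RBCS3B, -0.09 for RBCS2B and -0.60 for RBCS1B.

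RCA (AT2G39730), rubisco activase, uses ATP to free rubisco's active sites of inhibitory sugar phosphates. It had 1850.3, 1869 and 1857 FPKM in the WT_V libraries, against 3081, 3121 and 3111 FPKM in the WT libraries, with no overlap. The log2 difference was -0.74 ± 0.01 (SE, limma adjusted p = 5.16e-13), at 59.9% of WT. CA1 (AT3G01500), a chloroplast carbonic anhydrase that interconverts carbon dioxide and bicarbonate, had 394, 394 and 396 FPKM in WT_V and 601, 597 and 606 FPKM in WT. CA1 was at 65.7% of WT, with a log2 difference of -0.61 ± 0.0139 (SE, limma adjusted p = 3.13e-11). The large subunit of rubisco is made from the plastid gene rbcL (ATCG00490), which is not among the 42. It was listed at 2.28, 1.95 and 1.96 FPKM in WT_V and 4.1, 5.65 and 5.64 FPKM in WT (log2 difference -0.99 ± 0.112 SE, limma adjusted p = 1.27e-05), with no overlap. These values are far below those of the small subunit genes. How well the libraries captured plastid RNA was not tested, so they are uncertain as a measure of rbcL RNA.

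In the reduction step, phosphoglycerate kinase uses ATP and the glyceraldehyde-3-phosphate dehydrogenase complex uses NADPH. Of the 5 genes, 4 were lower and 1 was higher in WT_V. GAPA1 (AT3G26650), an A subunit of the dehydrogenase, had 598, 601 and 612 FPKM in the WT_V libraries and 901, 907 and 918 FPKM in the WT libraries. It was the most strongly lowered gene of the step, at 66.5% of WT (log2 difference -0.59 ± 0.0144 SE, limma adjusted p = 5.14e-11). GAPB (AT1G42970), the B subunit, whose C-terminal extension makes the enzyme responsive to thioredoxin, had 637, 638 and 641 FPKM in WT_V and 902, 891 and 902 FPKM in WT, at 71.1% of WT. Under quantile normalization the log2 difference was -0.285 for GAPA1 and -0.15 for GAPB. GAPA2 (AT1G12900) was at 74.8% of WT. PGK1 (AT3G12780), the main chloroplast phosphoglycerate kinase, was at 71.7%. PGK2 (AT1G56190), another plastid form, was the exception: it had 75, 78.5 and 82.6 FPKM in WT_V and 62.8, 58.2 and 58.5 FPKM in WT. PGK2 was higher in all 3 WT_V libraries, at 132% of WT (log2 difference 0.39 ± 0.0405 SE, limma adjusted p = 6.75e-06), and the difference was 0.19 under median-of-ratios scaling.

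Regeneration of ribulose bisphosphate is the longest stretch of the cycle, with 11 genes here, of which 8 were lower, 2 higher and 1 not called. Their summed level was 72.4% of that in WT. The aldolases, which join triose phosphates into larger sugar phosphates, moved in both directions. FBA1 (AT2G21330) had 314, 323 and 332 FPKM in the WT_V libraries and 549, 551 and 559 FPKM in the WT libraries. FBA2 (AT4G38970), the most abundant gene of the step, had 941, 961 and 973 FPKM in WT_V and 1269, 1258 and 1264 FPKM in WT. FBA1 was at 58.4% of WT (log2 difference -0.77 ± 0.0208 SE, limma adjusted p = 1.04e-10), the largest decrease of the step. FBA2 was at 75.8% of WT (log2 difference -0.40 ± 0.014 SE, limma adjusted p = 9.14e-10), though quantile normalization turned this to 0.15. FBA3 (AT2G01140), a further plastid aldolase, had 114, 112 and 116 FPKM in WT_V and 96.8, 95.2 and 92.5 FPKM in WT, and was higher in each WT_V library, at 120.4% of WT (log2 difference 0.27 ± 0.0253 SE, limma adjusted p = 3.36e-06), and the difference was 0.07 under median-of-ratios scaling.

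Transketolase moves carbon units between sugar phosphates, and its pair of genes also parted. TKL1 (AT3G60750) had 444, 449 and 450.0 FPKM in the WT_V libraries and 584, 606 and 598 FPKM in the WT libraries, at 75.1% of WT. TKL2 (AT2G45290), of low level in both sets, had 22.7, 22.7 and 23.9 FPKM in WT_V and 10.4, 10.6 and 8.69 FPKM in WT. TKL2 was at 233% of WT (log2 difference 1.15 ± 0.0681 SE, limma adjusted p = 6.94e-08) and was the only gene of the 41 tested to be called with a difference of 2-fold or more as deposited, a size and call reached by 11.9% of all genes tested. Under median-of-ratios scaling TKL2 was at 0.96, and CP12-2, GDCH1 and GGT1 passed 2-fold, at -1.12, -1.03 and -1.02. The bisphosphatases, which make the cycle run in its forward direction and are switched on by thioredoxin in light, were both lower. CFBP1 (AT3G54050), the chloroplast fructose-1,6-bisphosphatase, was at 62.2% of WT, and SBPASE (AT3G55800), which acts on sedoheptulose bisphosphate, was at 71.4%.

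PRK (AT1G32060), phosphoribulokinase, makes the acceptor of carbon dioxide and has no second gene in this list. It had 382, 388 and 387 FPKM in the WT_V libraries and 605, 614 and 611 FPKM in the WT libraries, at 63.2% of WT (log2 difference -0.66 ± 0.0143 SE, limma adjusted p = 1.96e-11). RPE (AT5G61410), ribulose-phosphate epimerase, was at 71.4% of WT. TPI (AT2G21170), the plastid triose-phosphate isomerase, differed least among the genes called lower in this step, with 213, 217 and 217 FPKM in WT_V and 243, 234 and 236 FPKM in WT. Its log2 difference was -0.14 ± 0.0197 (SE, limma adjusted p = 8.3e-05), and quantile normalization turned it to 0.05. RPI3 (AT3G04790), ribose-5-phosphate isomerase, had 59.7, 63.2 and 64.9 FPKM in WT_V and 62.5, 59.98 and 61.9 FPKM in WT. The sets overlapped and RPI3 was not called, with a log2 difference of 0.03 ± 0.0345 (SE, limma adjusted p = 0.526). It was called lower under median-of-ratios scaling, at -0.17 (limma adjusted p = 0.00106, with 0.00106 to 0.984 over 15 alternatives).

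CP12 proteins are small redox-sensitive linkers that hold phosphoribulokinase and glyceraldehyde-3-phosphate dehydrogenase in an inactive complex in the dark. All 3 genes were lower in WT_V, and their summed level was 58.8% of that in WT. CP12-2 (AT3G62410) had 686, 678 and 664 FPKM in the WT_V libraries and 1272, 1311 and 1266 FPKM in the WT libraries. As deposited, this was the greatest decrease among the 41 genes tested, to 52.7% of WT (log2 difference -0.92 ± 0.0172 SE, limma adjusted p = 6.29e-12). CP12-1 (AT2G47400) had 965, 971 and 942 FPKM in WT_V and 1495, 1528 and 1495 FPKM in WT, at 63.7% of WT (log2 difference -0.65 ± 0.015 SE, limma adjusted p = 3.2e-11). CP12-3 (AT1G76560), the rarest form, had 19.2, 19.1 and 17.5 FPKM in WT_V and 25.8, 25.9 and 23.8 FPKM in WT, at 74.0% of WT (log2 difference -0.41 ± 0.0505 SE, limma adjusted p = 2.39e-05). The sets did not overlap for any of the 3 genes. Under quantile normalization CP12-2 was at -0.47 and CP12-1 at -0.10, and GDCH1 at -0.65 was then the lowest of the 41.

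**Figure D2:**
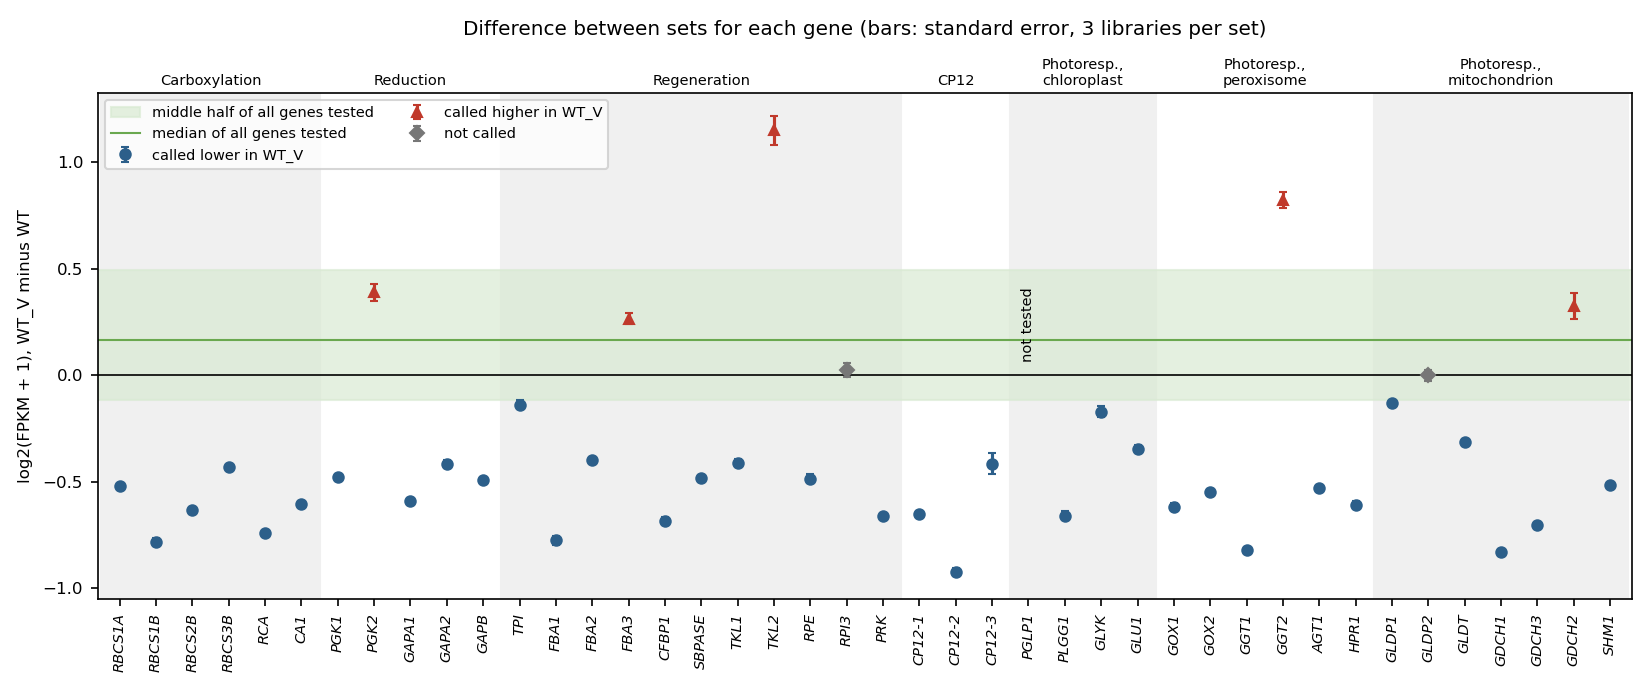
Log2 difference of log2(FPKM + 1), WT_V minus WT, with its standard error, for the 41 genes tested, grouped by role. The black line at 0 means equal levels, and the green line and band are the median and the interquartile range of all genes tested. Values run from -0.92 (CP12-2) to 1.15 (TKL2), and each of the 7 role groups holds at least 3 genes below 0.

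Photorespiration begins in the chloroplast. PGLP1 (AT5G36700), phosphoglycolate phosphatase, removes the phosphate of the oxygenation product. PGLP1 was listed at 0.665, 0.63 and 0.319 FPKM in WT_V and 1.08, 1.04 and 1.18 FPKM in WT, too low to be tested. Its coding sequence is 100% identical over 1089 bases to that of AT5G36790, and all 50-base stretches of the exons of either gene also occur elsewhere in the genome, so reads of the pair may not be separable and both values are uncertain. The copy was listed at 8.71, 13.9 and 7.25 FPKM in WT_V and 10.4, 27.5 and 16.6 FPKM in WT, with overlapping sets. The other 3 chloroplast genes were lower. PLGG1 (AT1G32080), the envelope transporter that exports glycolate and brings back glycerate, had 101, 100.2 and 101 FPKM in WT_V and 162, 157 and 159 FPKM in WT, at 63.1% of WT (log2 difference -0.66 ± 0.021 SE, limma adjusted p = 4.32e-10). GLU1 (AT5G04140), the ferredoxin-dependent glutamate synthase that takes part in recapturing ammonia, had 168, 174 and 172 FPKM in WT_V and 217, 219 and 217 FPKM in WT, at 78.7% of WT (log2 difference -0.34, and -0.16 under quantile normalization). GLYK (AT1G80380), glycerate kinase, the last step of the route, had 80.04, 82.6 and 79.3 FPKM in WT_V and 92.1, 88.9 and 91.7 FPKM in WT. GLYK was among the genes that differed least, at 88.7% of WT (log2 difference -0.17 ± 0.0263 SE, limma adjusted p = 0.000141), and its sets did not overlap.

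The peroxisomal genes turn glycolate into glycine and later hydroxypyruvate into glycerate. Of the 6, 5 were lower and 1 was higher in WT_V, and they summed to 64.4% of WT. GOX1 (AT3G14420), glycolate oxidase, is the most abundant of them. It had 928, 933 and 962 FPKM in the WT_V libraries and 1439, 1465 and 1422 FPKM in the WT libraries, at 65.2% of WT (log2 difference -0.62 ± 0.0165 SE, limma adjusted p = 1.04e-10), and the difference was -0.08 under quantile normalization. GOX2 (AT3G14415), its neighbour with 0 genes between them and 92% identity of coding sequence, was at 68.3% of WT. GGT1 (AT1G23310), glutamate:glyoxylate aminotransferase, had 791, 789 and 806 FPKM in WT_V and 1398, 1418 and 1397 FPKM in WT, at 56.6% of WT (log2 difference -0.82 ± 0.0131 SE, limma adjusted p = 1.9e-12). This was the largest decrease in this compartment as deposited, whereas under quantile normalization GGT1 was at -0.365 and HPR1 at -0.44. Its paralogue GGT2 (AT1G70580) had 33.0, 32.1 and 33.2 FPKM in WT_V and 18.2, 17.6 and 18.5 FPKM in WT, and was higher in WT_V at 181% of WT (log2 difference 0.82 ± 0.0372 SE, limma adjusted p = 7.49e-09). AGT1 (AT2G13360), serine:glyoxylate aminotransferase, was at 69.3% of WT and HPR1 (AT1G68010), hydroxypyruvate reductase, at 65.6%.

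In the mitochondrion, glycine decarboxylase and serine hydroxymethyltransferase turn glycine into serine and release carbon dioxide and ammonia. Of the 7 genes, 5 were lower, 1 was higher and 1 was not called. SHM1 (AT4G37930), the photorespiratory serine hydroxymethyltransferase and the most abundant of them, had 549, 549 and 547 FPKM in the WT_V libraries and 787, 784 and 783 FPKM in the WT libraries, at 69.9% of WT (log2 difference -0.52 ± 0.0123 SE, limma adjusted p = 4.25e-11, and -0.27 under quantile normalization). The H protein of glycine decarboxylase carries the reacting group between the other subunits and has 3 genes. GDCH1 (AT2G35370) had 376, 366 and 373 FPKM in WT_V and 664, 652 and 670.3 FPKM in WT, the largest decrease in this compartment, at 56.1% of WT (log2 difference -0.83 ± 0.0166 SE, limma adjusted p = 1.05e-11). GDCH3 (AT1G32470) was at 61.3% of WT. GDCH2 (AT2G35120) had 68.0, 66.3 and 64.1 FPKM in WT_V and 46.8, 53.9 and 57.8 FPKM in WT. It was higher in WT_V with no overlap, at 125% of WT (log2 difference 0.32 ± 0.0622 SE, limma adjusted p = 0.000708), but under median-of-ratios scaling the difference was 0.13 and was not called (limma adjusted p = 0.0886, with 0.000128 to 0.0886 over 15 alternatives).

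The P and T proteins of glycine decarboxylase differed less. GLDP1 (AT4G33010), the main P protein, which removes the carboxyl group, had 282, 287 and 288 FPKM in the WT_V libraries and 316, 310.5 and 312 FPKM in the WT libraries. It was at 91.2% of WT (log2 difference -0.13 ± 0.0166 SE, limma adjusted p = 3.05e-05), and quantile normalization turned the difference to 0.10. GLDP2 (AT2G26080) had 67.5, 69 and 70.1 FPKM in WT_V and 69.6, 68.5 and 68.5 FPKM in WT. These sets overlapped, and GLDP2 was not called, with a log2 difference of -0.001 ± 0.0259 (SE, limma adjusted p = 0.986). It was called lower under median-of-ratios scaling, at -0.20 (limma adjusted p = 4.59e-05, with 4.59e-05 to 0.989 over 15 alternatives). GLDT (AT1G11860), the T protein, which passes the remaining carbon to tetrahydrofolate, was at 80.3% of WT.

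The 34 genes called lower ran from 52.7 to 91.2% of WT as deposited, with a median of 68.8%, and 30 of them lay between 50 and 80%. Quantile normalization turned the sign of RBCS1A, TPI, FBA2 and GLDP1 among them. The order of the 42 levels was nearly the same in both sets, with a Spearman correlation of 0.985 between the mean levels in WT_V and in WT, as a description over genes that share libraries. Level and direction went together among these genes as among all genes tested. All 33 genes with a mean of at least 100 FPKM were called, 32 lower and 1 higher, beside 68.2% lower and 22.7% higher among all 1177 genes tested at that level. Of the 9 genes under 100 FPKM, 8 were tested, of which 2 were lower, 4 were higher and 2 were not called, beside 21.2% lower and 53.8% higher among all 17967 genes tested under 100 FPKM. The low-level genes were thus near the background in both directions. The genes called higher had WT means from 9.89 to 94.8 FPKM, and those called lower from 25.2 to 5620.3 FPKM.

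**Figure D3:**
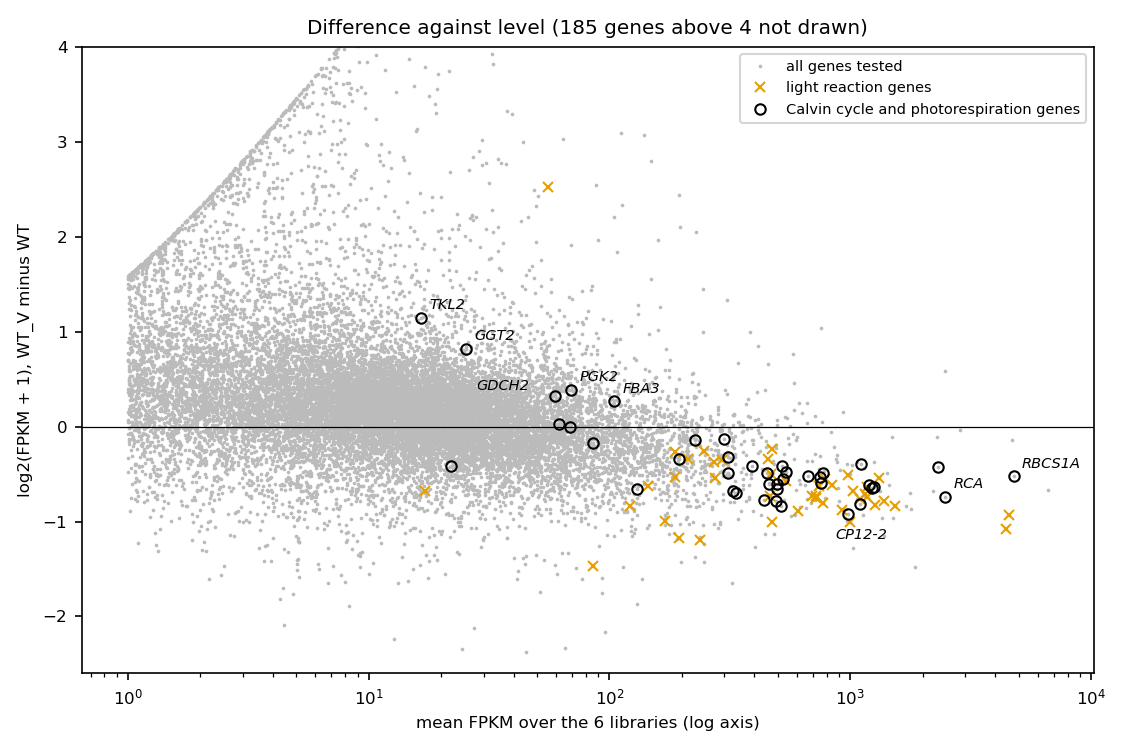
Mean level over the 6 libraries, in FPKM on a log axis, against the log2 difference WT_V minus WT, for the 41 genes tested (circles), the light reaction genes (crosses) and all genes tested (dots, without 185 genes above 4). The 4 genes called higher under 100 FPKM (PGK2, TKL2, GGT2 and GDCH2) and FBA3, just above it, lie above 0, and the other 32 genes at or over 100 FPKM lie below 0.

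Where a step is encoded by several genes, their shares of the family total were compared. A share does not change when all values of a library are multiplied by the same factor, as in median-of-ratios scaling. Quantile normalization can change it, and shares under it were not computed. In 9 of 10 families the share of the gene tested did not overlap between WT_V and WT, and each of these 9 gave an exact two-sided permutation p of 0.1, the smallest possible (0.1111 adjusted over 10 families), so no family passed 0.05. The levels of 77.6% of all genes tested also did not overlap. Shares in other families were not computed, so this count is not read as particular to these families. PGK1 made up 85.2 ± 0.462% of its family in WT_V and 91.4 ± 0.39% in WT (SD, n = 3 each). FBA1 made up 23.1 ± 0.231% in WT_V and 28.9 ± 0.243% in WT, while FBA3 made up 8.18% in WT_V and 4.96% in WT. GDCH1 made up 53.7 ± 0.376% in WT_V and 58.6 ± 0.467% in WT, and GDCH2 made up 9.55% in WT_V and 4.67% in WT. Thus in each of these families a minor gene held more of the total in WT_V as deposited. Among the aldolases so did FBA2, the most abundant, with 68.7% in WT_V and 66.1% in WT.

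Shares moved by smaller amounts elsewhere. The share of TKL1 was 95.1% in WT_V and 98.4% in WT, and that of GGT1 was 96.0% in WT_V and 98.7% in WT. GAPA1 held 64.3% in WT_V and 67.0% in WT. Among the CP12 genes, CP12-1 held 58.0% in WT_V and 53.5% in WT, and CP12-2 held 40.9% in WT_V and 45.6% in WT, so the order of both was the same in each set. GLDP1 held 80.6% in WT_V and 82.0% in WT, and GOX1 held 68.8% in WT_V and 69.8% in WT. The rubisco small subunit was the family whose tested gene overlapped: RBCS1A held 53.9, 53.9 and 54.5% in WT_V and 53.8, 54.0 and 53.7% in WT (exact two-sided permutation test, p = 0.4, 0.4 adjusted over 10 families). Within it, RBCS3B held 27.3% in WT_V and 25.5% in WT, and RBCS1B held 4.97% in WT_V and 5.94% in WT. As deposited, the gene with the lowest level of its family held a higher share in WT_V in 9 of the 10 families. RBCS1B was the exception, the lowest gene was the same in both sets, and the count was made after the values were seen. Under quantile normalization the log2 differences of GOX2 (-0.34), GLDP2 (0.006), CP12-3 (-0.57) and RBCS1B (-0.60) were below those of all other genes of their families. Those of PGK2, GAPA2, FBA3, TKL2, GGT2 and GDCH2 were above. In a family made of a single pair, the share of the lowest gene is only the remainder of the share already given. Among all genes tested under 100 FPKM, 53.8% were higher in WT_V, beside 22.7% at or over that level.

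**Figure D4:**
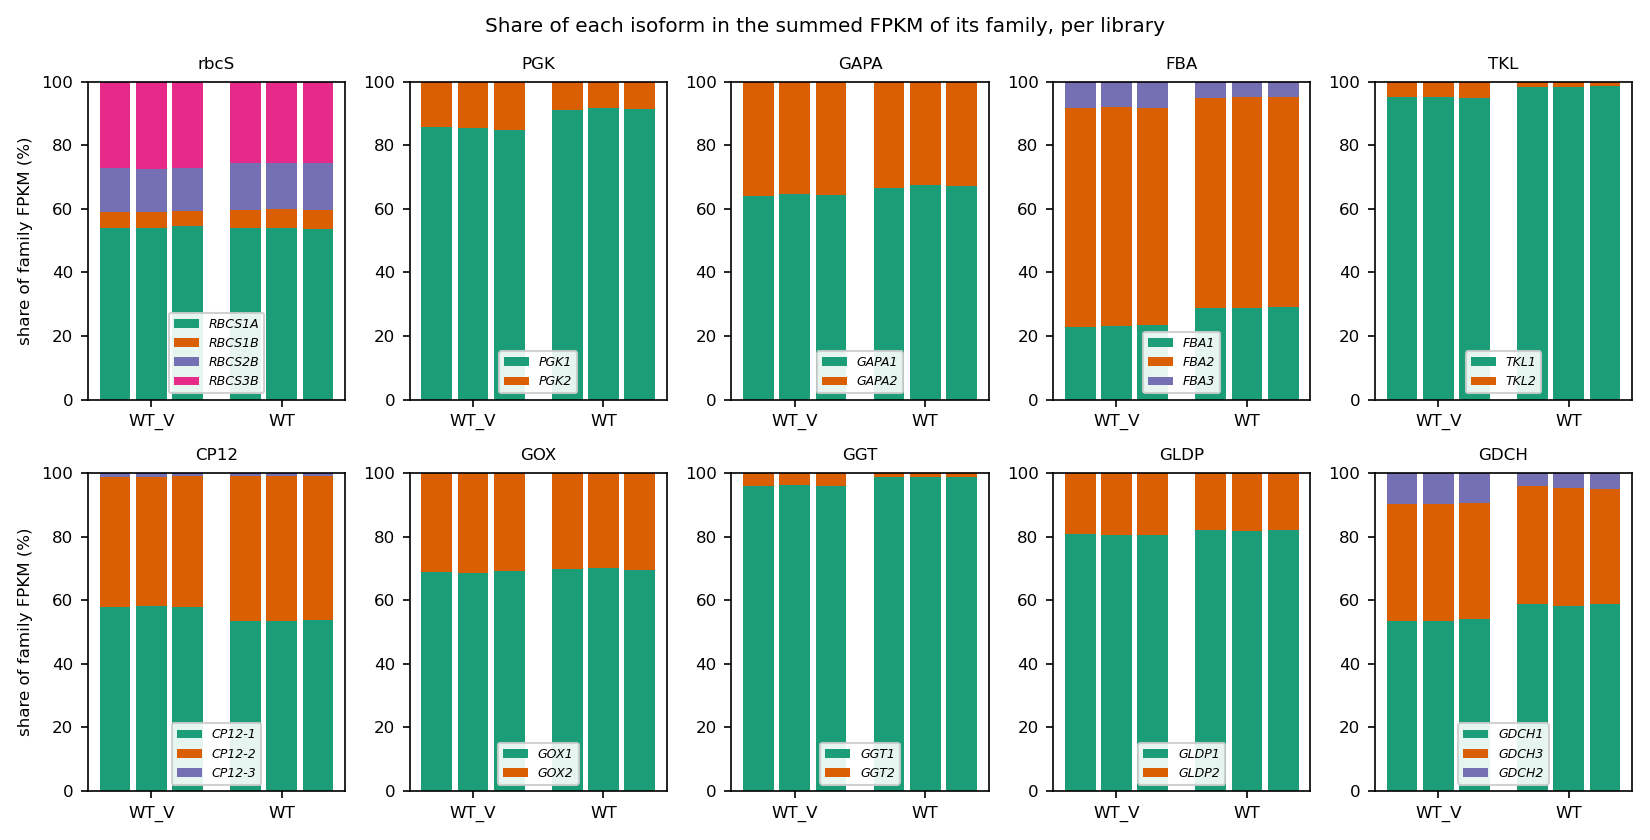
Share of each gene in the summed FPKM of its family, in percent, for each WT_V and WT library in the 10 families with more than 1 gene. As deposited, the lowest gene of each family holds more in WT_V than in WT except for RBCS1B, at 4.97% in WT_V and 5.94% in WT.

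Other genes of the same pathways, listed by function, were called in both directions, as were all genes tested (24.1% lower and 51.9% higher). Among 25 related genes of sugar phosphate metabolism and carbonic anhydrases, mainly the cytosolic and minor plastid counterparts of the cycle's enzymes, 13 were lower, 10 were higher and 2 were not called, with a median log2 difference of -0.10. The greatest decreases were those of FBA5, an aldolase of the cytosolic group, at 50.3% of WT, and CA2, a further carbonic anhydrase, at 54.0%. The greatest increases were those of GAPCP1 and GAPCP2, plastid glyceraldehyde-3-phosphate dehydrogenases of glycolysis, at 272% and 238% of WT. GAPCP1 had 6.51, 6.56 and 6.39 FPKM in WT_V and 2.34, 2.38 and 2.44 FPKM in WT, far below the levels of GAPA1 and GAPB.

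Genes that build rubisco and those that switch the cycle on in light were mostly lower. Of all genes tested, 24.1% were lower and 51.9% higher. Of those with a mean of at least 100 FPKM, 68.2% were lower. Of 13 rubisco assembly genes, 10 were lower and 3 were higher, with RAF2, a rubisco accumulation factor, at 56.6% and BSD2, a chaperone of the large subunit, at 66.0% of WT. The higher ones included CPN60B3 at 168% and CPN60A2 at 126%, minor forms of the chloroplast chaperonin. All 8 genes of the thioredoxin system of the chloroplast were lower, led by TRXF1 at 64.6% and TRXM4 at 67.9%, both thioredoxins that pass electrons to target enzymes, with a median log2 difference of -0.46. Among 28 further photorespiration genes, 27 were tested, of which 10 were lower, 14 were higher and 3 were not called. The share called higher was thus near the 51.9% of all genes tested. CAT2, a catalase that removes the hydrogen peroxide made by glycolate oxidase, was at 58.6% of WT, and PMDH2, a peroxisomal malate dehydrogenase, at 58.8%. CAT1, a catalase known from pollen and seeds, had 52.4, 53.2 and 55.6 FPKM in WT_V and 11.5, 13.6 and 11.6 FPKM in WT, at 439% of WT. AGT3, an aminotransferase related to alanine:glyoxylate aminotransferases, had 46.2, 47.5 and 45.8 FPKM in WT_V and 11.7, 11.3 and 12.3 FPKM in WT, at 395%.

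The nuclear genes of the light reactions gave a comparison for chloroplast genes at large. Of 43 such genes, 42 were lower in WT_V and 1 was higher, with a median log2 difference of -0.71, beside -0.49 for the genes of carbon fixation and photorespiration. Among all genes tested, 24.1% were lower and 51.9% higher. At a mean of at least 100 FPKM, where most of the light reaction genes lie, 68.2% of all genes were lower and 22.7% higher. The part of level in this count was not tested. Their summed level was 25377 to 25525 FPKM in WT_V and 43301 to 43587 FPKM in WT, at 58.6% of WT, beside 67.6%. LHCB1.1 and LHCB1.2, antenna proteins with near-identical copies whose separate values are uncertain, were at 35.7% and 43.5% of WT. LHCB4.3, a minor antenna gene, was the exception, with 95.5, 98.4 and 92.5 FPKM in WT_V and 15.1, 17.2 and 14.9 FPKM in WT, at 607%. The difference between these medians was not tested.

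**Figure D5:**
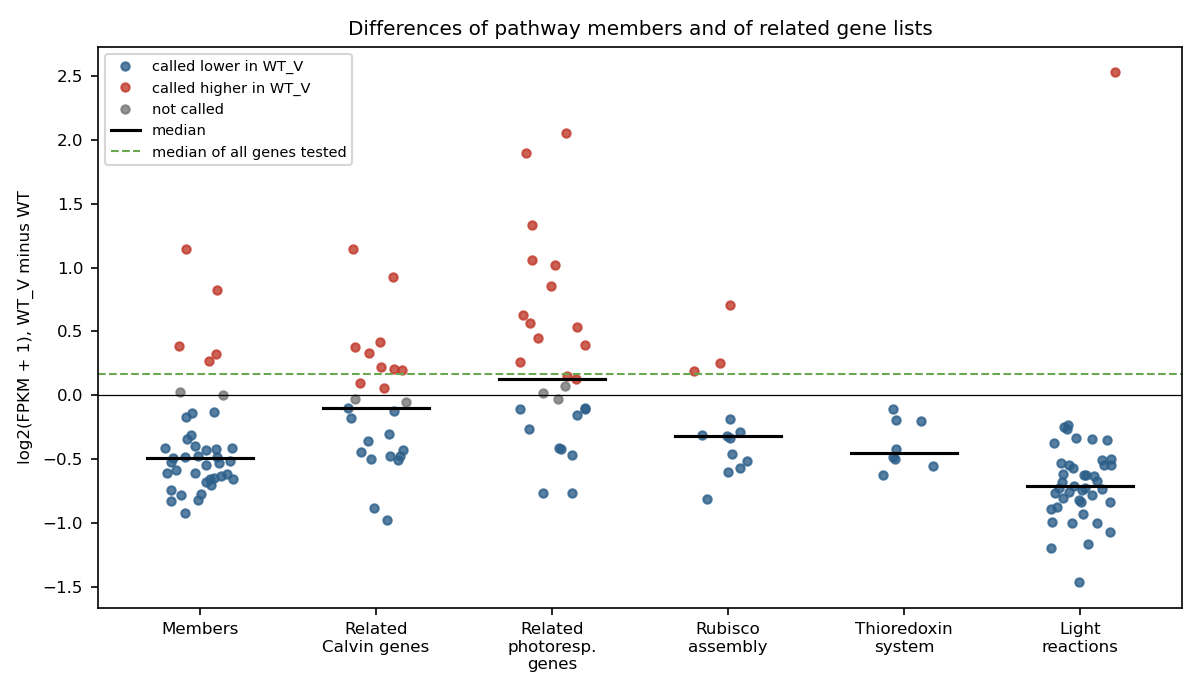
Log2 difference WT_V minus WT of each tested gene in the 42-gene set and in the 5 other lists, with the median of each list as a bar and that of all genes tested as a dashed line. The medians run from -0.71 for the light reactions to 0.13 for the further photorespiration genes, beside 0.17 over all genes tested.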

How the data were processed

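The authors deposited 1 table of FPKM for 6 libraries. Per the submitters' processing notes, TopHat2 2.0.12, Bowtie2 2.2.3 and HTSeq 0.6.1 were used; the genome build is not given in the sources used here. FPKM values multiplied by TAIR10.1 exon lengths were whole counts within 0.02 for 99.06 to 99.34% of single-transcript genes under 500 counts, which gave scaling totals of 47386400 to 51012750 counts in WT_V and 40307500 to 46467000 in WT. At this depth, 1 count in a gene of 1 kb is 0.0196 to 0.0248 FPKM, and the genes described other than PGLP1 had about 641 to 334088 counts. Libraries of a set differed by more than counting noise, as separate preparations of 1 RNA also could, so no pair was taken as 1 library deposited repeatedly and their origin stays unknown.

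Log2(FPKM + 1) was tested with limma 3.58.1 (R 4.3.3, trended variance, Benjamini-Hochberg, threshold 0.05) over 19144 genes with a mean of at least 1 FPKM, and changes of low genes are understated on this scale. All differences are WT_V minus WT. Values per library were given for the rubisco small subunit genes, RCA, CA1, the most abundant and most strongly differing members of each role, those called higher or not called, and, of other lists, the 2 genes with the greatest differences each way were named; those of TKL1, TPI, PRK, CP12-3, GLYK and GLDP1 were added after their values were seen. Members and lists were chosen with earlier results of these data known. Sequences and gene positions are from the RefSeq annotation of TAIR10.1, and 42 of 42 loci matched. Alternatives covered pseudocount, filter, scaling, organelle genes, variance trend, replicate block and each library left out.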

Additional observations from a re-analysis of the deposited data

How the results depend on the processing

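Of 615 results of single genes under alternatives (pseudocounts of 0.1 and 5, no filter or a mean of at least 5 FPKM, median-of-ratios scaling, quantile normalization, organelle genes removed, no variance trend, a replicate block, and each library left out), 603 kept direction and call, and 34 of the genes did so under every one. With median-of-ratios scaling, 7222 of all genes were lower, with a median of -0.015, whereas quantile normalization called 8596 lower and 5711 higher, with a median of -0.09. Of the genes of carbon fixation and photorespiration, quantile normalization gave 9 higher and 30 lower, with a median of -0.24, and median-of-ratios scaling gave 4 higher and 36 lower. Median-of-ratios scaling gave 5 higher and a median of -0.30 for the related sugar phosphate genes, 1 higher and -0.52 for rubisco assembly and -0.061 for the further photorespiration genes. Quantile normalization gave medians of -0.16 for the related sugar phosphate genes, 0.069 for the further photorespiration genes and -0.33 for the light reactions. The related sugar phosphate genes had a median of -0.047 without organelle genes. RPI3 was at -0.17 with median-of-ratios scaling, and below 0, at -0.001, without WT_V replicate 3. Under quantile normalization RBCS1A was at 0.15, TPI at 0.049, FBA2 at 0.15, GLDP1 at 0.10 and GLDP2 at 0.006. GLDP2 was at 0.054 without organelle genes. With each library left out, RPI3 ran from -0.001 to 0.058 and GLDP2 from -0.014 to 0.014. The cause was not tested. Leaving out each library in turn left 34 lower and 5 higher, with medians of -0.50 to -0.49, and 13545 to 14292 of all genes called. PGLP1 was tested with no filter alone (-0.46, limma adjusted p = 0.00536). The numbers did not pair the libraries: deviations of same-numbered libraries correlated at -0.016, -0.016 and 0.014, and 1 of 3 numbers correlated best with its own. With the replicate block, 14477 of all genes were called, and 34 lower and 5 higher among the genes described. PGLP1 had 32 to 103 counts, and its reads may not be separable from those of its copy.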
